A study of Homo sapiens with 6 samples.

Results

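The genes that encode the integrin subunits and the laminin chains were compared between ARID1A-KO and WT AID-DIvA cells. Members were taken by gene name (ITGA and ITGB symbols of the subunits, and LAMA, LAMB and LAMC symbols of the chains), a rule that uses no measured value. The genes described are 37 of the 57820 in the tables, 18 integrin alpha subunits, 8 integrin beta subunits and 11 laminin chains. AID-DIvA cells derive from U2OS, a human osteosarcoma line, and carry an inducible AsiSI nuclease fused to a degron, which was not induced here. RNA-seq covered 3 untreated WT and 3 untreated ARID1A-KO samples, so both genotypes share the AsiSI background. The ARID1A-KO cells were made with Cas9 and 2 crRNAs against ARID1A, a subunit of the BAF form of the SWI/SNF chromatin remodelling complex. Which clone, or how many clones, gave the RNA is not given in the sources used here, so a difference between genotypes and a difference between clones cannot be told apart.

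Integrins are cell surface receptors made of an alpha and a beta subunit, and the pairing decides which matrix protein or cell surface partner is bound. Their short intracellular tails connect to actin through talin, kindlin and other adaptors. Laminins are secreted trimers of an alpha, a beta and a gamma chain, assembled inside the cell, and they form the sheet of the basement membrane to which integrins alpha3, alpha6 and alpha7 attach.

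Reverse-stranded counts on genes ranged from 59864474 to 72413018 per WT sample and from 54512105 to 84088708 per ARID1A-KO sample. Samples are named by the replicate numbers of the labels, 3, 4 and 5 in each genotype, and values for a genotype are given in that order. The labels do not say that the replicates were separate cultures, whereas the study describes its expression data as independent experiments, and p-values measure the spread between these samples. ARID1A itself (chr1:27022524-27108595, plus strand, GRCh37) had 173 ± 6.67 CPM (normalized counts scaled to a common library size) in WT against 25.9 ± 1.38 in ARID1A-KO cells (SD, n = 3 each). Of the 8 osteoblast lineage markers checked, 4 had at least 1 TPM (transcripts scaled by length and library size) in every sample, and the summed TPM of all 8 was 850 to 945 in WT against 519 to 555 in ARID1A-KO cells. Most of this sum came from SPARC, and without SPARC it was 215 to 229 against 128 to 195. Of the 5 markers tested, 3 were called, all lower, while RUNX2 had a log2 fold change of -0.03 and was not called. The sum over 3 endothelial markers was 1.08 to 2.39 in WT against 0.803 to 0.933 in ARID1A-KO cells, most of the WT sum from TEK, the 1 marker called (lower). Without TEK it was 0.268 to 0.527 against 0.463 to 0.571, and CDH5 (0.51) and KDR (0.17) had positive log2 fold changes that were not called. PECAM1, also chosen as an endothelial marker, matched no gene name and is not in these sums. Levels are given as the authors' TPM, which divides by gene length, and changes as log2 fold changes of ARID1A-KO over WT from edgeR's quasi-likelihood test. A gene is called when its adjusted p is under 0.05 over all genes tested.

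Of the 37 genes, 32 had enough counts to be tested. The 5 others were ITGA8, ITGAD, ITGAL, ITGB7 and LAMB4, with 0 to 17 counts per sample. Levels spanned a wide range, with 7 of the 37 genes above a mean of 100 TPM over all samples and 12 below 1 TPM. ITGB1, the beta subunit shared by most integrins of adherent cells, was the most abundant in every sample, at 878 TPM or more. LAMB3, the beta chain of laminin-332, followed with a mean of 387 ± 27.7 TPM in WT against 478 ± 18.5 in ARID1A-KO cells (SD, n = 3 each). In WT cells its samples overlapped those of ITGA3, at 300 to 373 TPM, whereas in ARID1A-KO cells every LAMB3 value lay above every ITGA3 value. The plot of levels by sample shows where each gene stands.

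**Figure D1:**
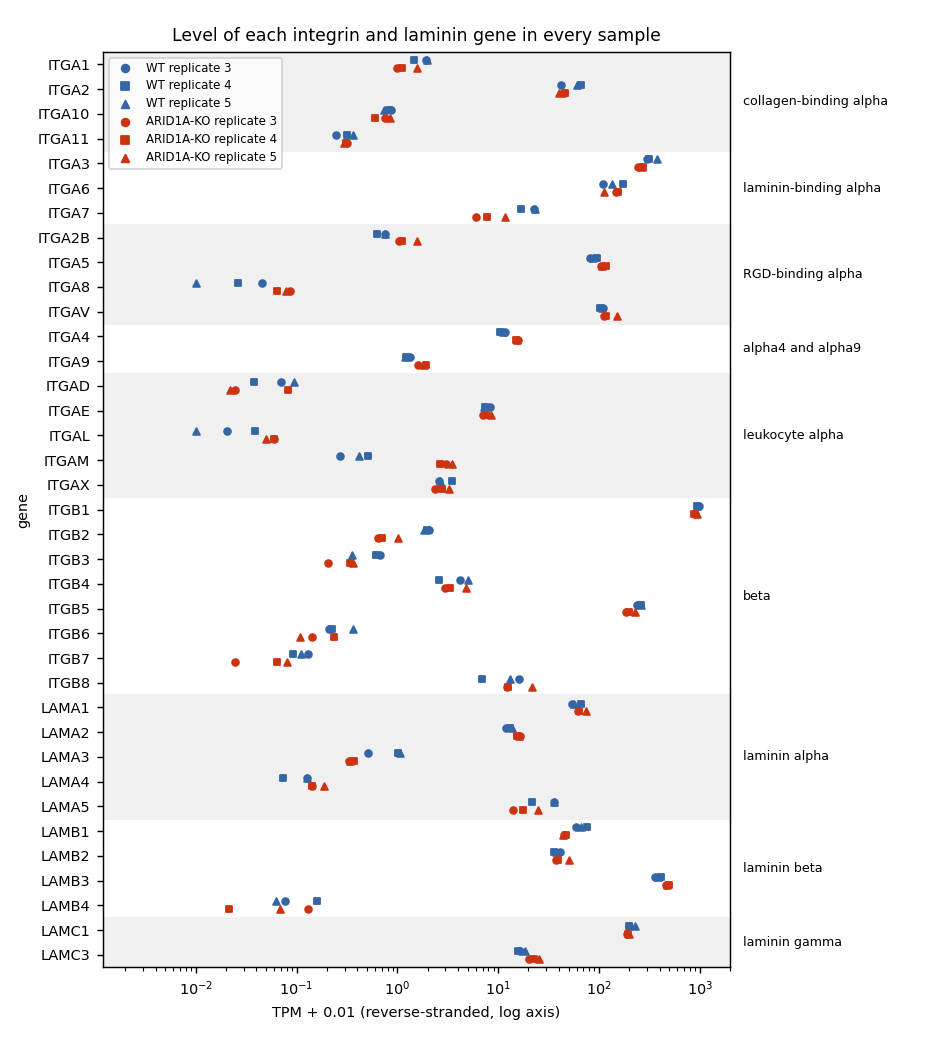
TPM of each of the 37 genes in the 3 WT samples (blue) and the 3 ARID1A-KO samples (red), with 0.01 added and on a log axis. Marker shapes are the replicate numbers and shading separates the roles. ITGB1 is at the right at 878 to 994 TPM, and of the tested genes ITGAM has the genotypes furthest apart.

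Of the 32 tested genes, 17 were called, 8 higher and 9 lower in ARID1A-KO cells, and 15 were not. Over all 19599 genes tested, 36.2% were called, 17.8% higher and 18.4% lower. Without ARID1A-KO replicate 4, 11 of 33 tested members were called, 5 higher and 6 lower, and 5285 of all 20158 genes tested in that fit. The counts that follow are again from the fit of all 6 samples. The genes called with a change of 2-fold or more were ITGAM, which was higher, and LAMA3, ITGB2 and ITGA7, which were lower. Such changes were called for 10.8% of all genes tested. The CPM of the genotypes did not overlap for 18 of the 32 genes, 10 higher and 8 lower, against 49.5% of all genes. The median log2 fold change was -0.05 over the 32 genes and 0.01 over all genes, with 13 positive and 19 negative. Members thus moved in both directions, and they are described by role.

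**Figure D2:**
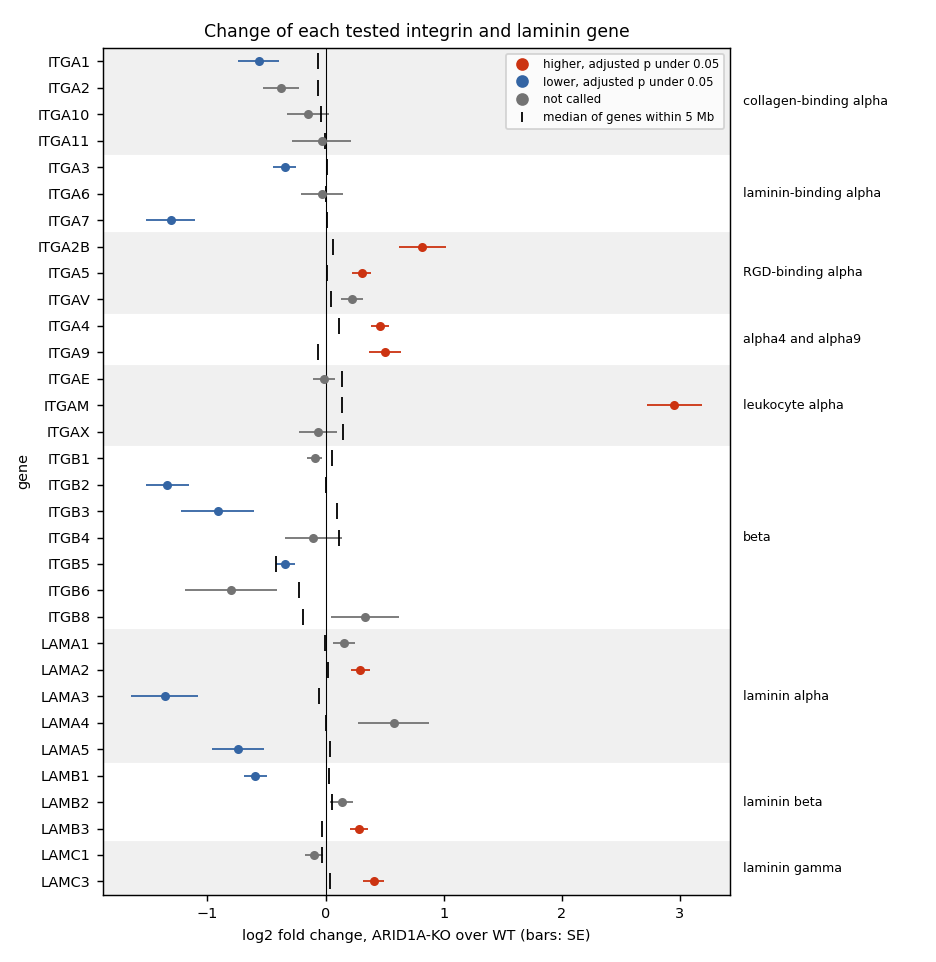
Log2 fold change of each of the 32 tested genes, ARID1A-KO over WT, with its SE as a bar. Red and blue points passed an adjusted p of 0.05 and grey points did not, and the black tick is the median change of the other genes tested within 5 Mb. ITGAM lies at 2.95, and LAMA3, ITGB2 and ITGA7 lie between -1.36 and -1.31.

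Among the alpha subunits that bind laminin, ITGA7 and ITGA3 fell and ITGA6 was not called. ITGA7 (ENSG00000135424.11, chr12:56078352-56109827, minus strand) encodes a laminin receptor best known from muscle. It had 22.5, 16.9 and 23.1 TPM in WT against 6.0, 7.80 and 11.7 TPM in ARID1A-KO cells. Every ARID1A-KO sample lay below every WT sample, and replicate 5 was the highest of the ARID1A-KO samples. The log2 fold change was -1.31 (SE 0.21, edgeR adjusted p = 0.00117), a 2.48-fold lower level. ITGA3, which pairs with ITGB1 to bind laminin-332 and laminin-511, was the most abundant alpha subunit, with 300, 313 and 373 TPM in WT against 245, 273 and 266 TPM in ARID1A-KO cells. The genotypes did not overlap, and the log2 fold change was -0.35 (SE 0.10, edgeR adjusted p = 0.0187). This call was lost without ARID1A-KO replicate 3 (edgeR adjusted p = 0.0653). ITGA6, whose subunit pairs with ITGB1 or ITGB4, had 110, 174 and 133 TPM in WT against 148, 154 and 111 TPM in ARID1A-KO cells. These values overlapped throughout, with a log2 fold change of -0.03 (SE 0.18, edgeR adjusted p = 0.924).

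The 4 collagen-binding alpha subunits had negative log2 fold changes, and 1 was called. ITGA2, the most abundant of them, had 42.2, 66.0 and 60.1 TPM in WT against 45.3, 46.0 and 40.1 TPM in ARID1A-KO cells. WT replicate 3 lay among the ARID1A-KO samples. The log2 fold change of ITGA2 was -0.38 (SE 0.15, edgeR adjusted p = 0.0857), and without WT replicate 3 it was -0.56 and called (edgeR adjusted p = 0.00298). DESeq2 also called it (adjusted p = 0.0365). ITGA1 went from 1.77 ± 0.285 to 1.21 ± 0.295 TPM (SD, n = 3 each), with overlapping samples and a log2 fold change of -0.57 (SE 0.18, edgeR adjusted p = 0.0328). Its edgeR adjusted p was 0.113 without ARID1A-KO replicate 3, 0.110 without replicate 4, 0.0939 without WT replicate 3 and 0.109 without WT replicate 5. The gene shares 16107 bp with PELO on the same strand, where a read cannot be told apart by strand, and PELO had a log2 fold change of -0.23. The log2 TPM ratio of ITGA1 to ITGA2, which lie 30116 bp apart on chromosome 5, differed by -0.23 with overlapping samples (exact permutation test, p = 0.6). ITGA10 and ITGA11, both below 1 TPM, had log2 fold changes of -0.15 and -0.03.

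The 3 tested alpha subunits that bind the RGD motif of fibronectin, vitronectin and fibrinogen, and the pair ITGA4 and ITGA9, had positive log2 fold changes. ITGAV, the most abundant RGD-binding subunit in the mean over all samples, had 110, 103 and 107 TPM in WT against 112, 116 and 151 TPM in ARID1A-KO cells. The closest samples of the genotypes were 110 and 112 TPM, without overlap, and the log2 fold change of 0.23 did not pass the test (SE 0.09, edgeR adjusted p = 0.0917). ITGA5, the alpha subunit of the main fibronectin receptor, had 80.7, 95.6 and 86.4 TPM in WT against 105, 116 and 108 TPM in ARID1A-KO cells. Its log2 fold change was 0.31 (SE 0.08, edgeR adjusted p = 0.0154), and the call was lost without ARID1A-KO replicate 4 (edgeR adjusted p = 0.0722) or WT replicate 3 (0.0590).

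ITGA4, whose product binds fibronectin and VCAM1, had 11.6, 10.4 and 11.2 TPM in WT against 15.8, 15.1 and 15.4 TPM in ARID1A-KO cells. The samples of each genotype lay close together and the genotypes did not overlap. The log2 fold change was 0.46 (SE 0.07, edgeR adjusted p = 0.00111). Its relative ITGA9 rose by 0.50 (SE 0.13, edgeR adjusted p = 0.0165), from 1.24 ± 0.0832 to 1.79 ± 0.160 TPM (SD, n = 3 each), and was not called without ARID1A-KO replicate 4 (edgeR adjusted p = 0.0789). ITGA2B, known as the platelet fibrinogen receptor subunit, rose from 0.696 ± 0.0730 to 1.24 ± 0.293 TPM (SD, n = 3 each), a log2 fold change of 0.82 (SE 0.20, edgeR adjusted p = 0.0113). The summed TPM of 3 platelet and megakaryocyte markers was 0 in every WT sample and 0.424 to 0.664 in ARID1A-KO samples, with GP9 at 0 in all of them. The sum rested on PF4, with 4, 5 and 5 counts in ARID1A-KO cells, and without PF4 it was 0 to 0.0208 there. The part of these markers in the ITGA2B difference was not tested.

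Among the leukocyte integrins, ITGAM and ITGB2 went in opposite directions although their products form 1 receptor, Mac-1. ITGAM (ENSG00000169896.12, chr16:31271311-31344213, plus strand) had 0.261, 0.501 and 0.408 TPM in WT against 3.04, 2.66 and 3.51 TPM in ARID1A-KO cells. These values rest on 22, 46 and 31 counts in WT against 269, 188 and 383 counts in ARID1A-KO cells. The lowest ARID1A-KO sample lay above the highest WT sample, and the log2 fold change was 2.95 (SE 0.23, edgeR adjusted p = 2.38e-05), a 7.74-fold higher level. ITGB2 (ENSG00000160255.12, chr21:46305868-46351904, minus strand) encodes the beta subunit that ITGAM, ITGAX, ITGAL and ITGAD share. It had 2.05, 1.97 and 1.82 TPM in WT against 0.632, 0.697 and 0.994 TPM in ARID1A-KO cells. The genotypes did not overlap, and the log2 fold change was -1.34 (SE 0.18, edgeR adjusted p = 0.000474), a 2.53-fold lower level. In TPM, the ratio of ITGAM to ITGB2 was 0.127, 0.254 and 0.224 in WT against 4.82, 3.82 and 3.53 in ARID1A-KO cells. The log2 of this ratio differed by 4.38 (two-sided exact permutation test, p = 0.1). ITGB2 was thus the more abundant of the pair in every WT sample and the less abundant in every ARID1A-KO sample.

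ITGAX lies 22242 bp downstream of ITGAM on the same strand and encodes the alpha subunit of a related receptor. It had 2.57, 3.44 and 2.63 TPM in WT against 2.37, 2.75 and 3.26 TPM in ARID1A-KO cells, with a log2 fold change of -0.06 (SE 0.16, edgeR adjusted p = 0.797). The samples overlapped, unlike those of its neighbour, and the TPM ratio of ITGAM to ITGAX went from 0.101, 0.146 and 0.155 to 1.28, 0.968 and 1.08. The log2 of this ratio differed by 3.06 (two-sided exact permutation test, p = 0.1, the smallest that 3 samples against 3 allow, and 0.133 after Benjamini-Hochberg adjustment over 4 ratios). The 150 other genes tested within 5 Mb of ITGAM had a median of 0.14. ITGAE, which pairs with ITGB7 on T cells in epithelia, was the most abundant of this group, with 8.29, 7.47 and 7.28 TPM in WT against 7.09, 7.5 and 8.57 TPM in ARID1A-KO cells. It overlapped between genotypes, with a log2 fold change of -0.01 (SE 0.09, edgeR adjusted p = 0.950). The summed TPM of 6 leukocyte markers was 2.19 to 3.26 in WT against 1.497 to 2.004 in ARID1A-KO cells, and the difference rested on PTPRC, the general leukocyte marker, which went from 1.01 ± 0.270 to 0.235 ± 0.143 TPM (SD, n = 3 each). Without PTPRC, a sum chosen after seeing the data, the genotypes overlapped, at 1.23 to 1.96 in WT against 1.29 to 1.75. PTPRC was the 1 called gene of the 3 tested, while CD14 and CD53 had log2 fold changes of -0.56 and 0.04. SPI1, a myeloid transcription factor with too few counts to be tested, was higher without overlap in TPM, at 0.0646 ± 0.0292 against 0.164 ± 0.0757 (SD, n = 3 each). These SPI1 values rest on 1, 3 and 2 counts in WT against 4, 3 and 10 in ARID1A-KO cells. The part of such cells in the ITGAM difference was not tested. In bulk RNA, fewer cells that express a gene and less of its RNA per cell cannot be told apart.

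The ITGAM start is shown because ITGAM had the largest change of the family. RefSeq gives 1 window for it, 250 bases before to 50 bases after a start site, in GRCh38.p14 at chr16:31259725-31260024 on the plus strand. It holds no match on either strand to TGANTCA, the motif of AP-1 (the FOS and JUN family of transcription factors), or to GGAATG, the motif of the TEAD factors that work with YAP.
ITGAM: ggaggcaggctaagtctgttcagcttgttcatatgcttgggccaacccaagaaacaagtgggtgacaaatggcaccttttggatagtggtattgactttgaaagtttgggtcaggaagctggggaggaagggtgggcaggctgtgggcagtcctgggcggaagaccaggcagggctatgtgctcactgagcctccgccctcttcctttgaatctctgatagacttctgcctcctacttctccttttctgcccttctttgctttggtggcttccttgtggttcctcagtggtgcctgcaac

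Of the 7 beta subunits tested, ITGB2, ITGB3 and ITGB5 were lower and none was called higher. ITGB1 (chr10:33189247-33294720, minus strand) had 994, 935 and 937 TPM in WT against 902, 878 and 937 TPM in ARID1A-KO cells. Samples of the genotypes overlapped in TPM, although not in CPM, and the log2 fold change was -0.09 (SE 0.06, edgeR adjusted p = 0.265). ITGB5, a partner of ITGAV, went from 255 ± 12.3 to 204 ± 23.1 TPM (SD, n = 3 each) without overlap, a log2 fold change of -0.34 (SE 0.08, edgeR adjusted p = 0.00917). The 91 other tested genes up to 5 Mb away on chromosome 3 had a median of -0.42, and with that median taken off, ITGB5 stood at 0.08 (edgeR adjusted p = 0.507). Relative to its chromosomal neighbours, then, the change of ITGB5 did not pass the test. ITGB3, the other main partner of ITGAV, had 15 to 49 counts per sample and a log2 fold change of -0.92 (SE 0.31, edgeR adjusted p = 0.0461). It was not called by DESeq2 (adjusted p = 0.0895) or by edgeR without WT replicate 3 (adjusted p = 0.150), WT replicate 4 (0.106), ARID1A-KO replicate 3 (0.146) or ARID1A-KO replicate 4 (0.0821). The tables list ITGB3 in 2 rows that overlap on the same strand, of which 1 has 0 counts in all samples, so reads in shared exons may be missing from its count. ITGB4, ITGB6 and ITGB8 had log2 fold changes of -0.10, -0.80 and 0.33 and were not called. ITGB6 had 12 to 30 counts per sample.

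Among the laminin genes, LAMA3 fell and LAMB3 rose, although their products are chains of the same trimer, laminin-332, which anchors epithelial cells. LAMA3 (ENSG00000053747.11, chr18:21269407-21535030, plus strand), an alpha chain, had 0.496, 1.01 and 1.06 TPM in WT against 0.322, 0.362 and 0.330 TPM in ARID1A-KO cells. The genotypes did not overlap, WT replicate 3 was the lowest of its group, and the log2 fold change was -1.36 (SE 0.28, edgeR adjusted p = 0.00484), a 2.57-fold lower level. LAMB3 (ENSG00000196878.8, chr1:209788215-209825811, minus strand), a beta chain, had 359, 414 and 389 TPM in WT against 461, 497 and 475 TPM in ARID1A-KO cells. Its samples did not overlap either, in the opposite direction, with a log2 fold change of 0.29 (SE 0.08, edgeR adjusted p = 0.0161). The LAMB3 call was lost without ARID1A-KO replicate 4 (edgeR adjusted p = 0.0776) or WT replicate 3 (0.0647), whereas LAMA3 was called in all 6 fits that left out 1 sample.

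In TPM, LAMB3 was 723, 410 and 366 times as abundant as LAMA3 in WT cells, and 1430, 1374 and 1436 times in ARID1A-KO cells. The log2 of this ratio differed by 1.57 (two-sided exact permutation test, p = 0.1, 0.133 after adjustment over 4 ratios). The summed TPM of 6 epithelial markers was 863 to 984 in WT against 605 to 662 in ARID1A-KO cells, most of it from KRT8 and KRT18. Of these markers, 4 were called lower and EPCAM was called higher, and their part in the LAMA3 and LAMB3 differences was not tested.

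**Figure D3:**
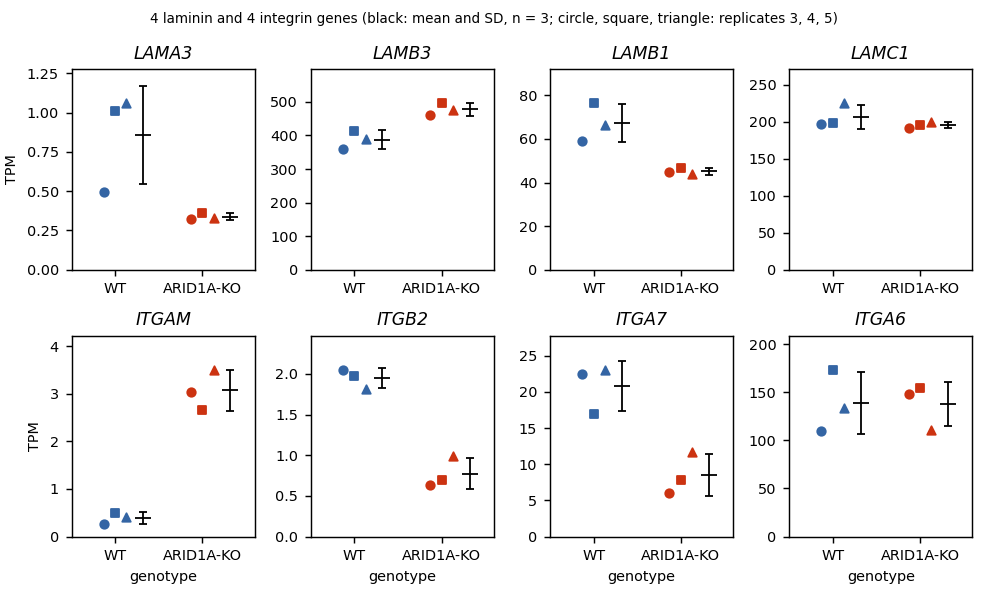
TPM in each sample for 4 laminin genes and 4 integrin genes, with the mean and SD of each genotype in black (n = 3). Vertical axes start at 0 and differ between panels. LAMA3 and LAMB1 were lower and LAMB3 higher in every ARID1A-KO sample, LAMC1 and ITGA6 overlapped between genotypes, and ITGAM and ITGB2 separated in opposite directions.

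RefSeq start windows of LAMA3 and LAMB3 are shown because windows of both genes hold AP-1 matches while their RNAs moved in opposite directions. The window of LAMA3 lies at chr18:23872770-23873069 on the plus strand, and the window of LAMB3 at chr1:209651325-209651624 on the minus strand, both in GRCh38.p14. LAMB3 has 3 RefSeq windows and the one with a match is printed. Capitals mark the matches to TGANTCA, a palindrome that reads the same on both strands, which begin 125 and 69 bases before the start site of the LAMA3 window and 67 bases before that of the LAMB3 window. By an exact match of their letters to GRCh37, the build of the counts, the LAMA3 start site lies at chr18:21452984, 183577 bases inside the gene, and is thus an internal start, not the start of the longest transcripts. The LAMB3 start site lies at chr1:209824719, 1092 bases inside that gene. The counts are per gene and do not tell the transcripts of different starts apart.
LAMA3: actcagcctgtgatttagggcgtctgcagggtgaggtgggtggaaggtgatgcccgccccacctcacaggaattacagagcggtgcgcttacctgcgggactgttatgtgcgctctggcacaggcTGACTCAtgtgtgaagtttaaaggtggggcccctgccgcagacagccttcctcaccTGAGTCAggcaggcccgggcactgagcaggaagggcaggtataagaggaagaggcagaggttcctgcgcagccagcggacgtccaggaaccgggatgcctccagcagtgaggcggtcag
LAMB3: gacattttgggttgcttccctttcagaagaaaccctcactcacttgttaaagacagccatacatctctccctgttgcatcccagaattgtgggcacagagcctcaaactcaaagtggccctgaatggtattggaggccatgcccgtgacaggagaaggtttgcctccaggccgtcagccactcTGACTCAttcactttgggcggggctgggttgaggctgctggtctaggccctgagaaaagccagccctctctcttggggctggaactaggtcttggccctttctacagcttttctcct
RefSeq windows were found for 26 of the 37 genes, 33 windows in all. LAMC3, LAMA1, ITGA3, ITGA7, ITGA9, ITGAD, ITGAL, ITGAX, ITGB2, ITGB3 and ITGB4 were not matched. The AP-1 motif was in 3 of the 33 windows, those of LAMA3, LAMB3 and ITGA5, and in 7.71% of all 35116 windows of this length. The TEAD motif GGAATG, searched on both strands, was in 4 windows, those of ITGA5, ITGA10, ITGB1 and LAMA2, against 14.03% of all windows. The GC box GGGCGG, a motif of the Sp1 family, was in 19 windows of 14 genes, against 45.0% of all windows. A match describes the letters of the window and says nothing of binding in these cells.

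Of the gamma chains, LAMC1 was not called and LAMC3 was higher. LAMC1 (chr1:182992595-183114727, plus strand), the gamma chain of most laminins, had 197, 198 and 225 TPM in WT against 192, 196 and 200 TPM in ARID1A-KO cells. Its samples overlapped, with a log2 fold change of -0.10 (SE 0.07, edgeR adjusted p = 0.338). LAMC3 rose from 16.9 ± 1.35 to 22.7 ± 2.47 TPM (SD, n = 3 each) without overlap, a log2 fold change of 0.41 (SE 0.09, edgeR adjusted p = 0.00682).

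Among the laminin alpha chains, LAMA1, a chain of embryonic basement membranes, was the most abundant, with 53.8, 65.7 and 56.8 TPM in WT against 62.1, 63.2 and 73.9 TPM in ARID1A-KO cells. Its samples overlapped, with a log2 fold change of 0.16 (SE 0.09, edgeR adjusted p = 0.207), and of the alternatives run it was called only without WT replicate 4 (0.25, edgeR adjusted p = 0.0473). LAMA2, the alpha chain of muscle laminin, rose by 0.30 (SE 0.08, edgeR adjusted p = 0.0173), from 12.9 ± 0.882 to 16.1 ± 0.561 TPM (SD, n = 3 each). The LAMA2 call was lost without ARID1A-KO replicate 3 (edgeR adjusted p = 0.0711) or WT replicate 3 (0.0668). LAMA5, the alpha chain of laminin-511, had 35.8, 21.7 and 35.8 TPM in WT against 13.9, 17.7 and 25.1 TPM in ARID1A-KO cells. WT replicate 4 lay among the ARID1A-KO samples, and the log2 fold change was -0.74 (SE 0.22, edgeR adjusted p = 0.0271). It was not called by edgeR without WT replicate 3 (adjusted p = 0.0923), WT replicate 5 (0.102), ARID1A-KO replicate 3 (0.0829) or ARID1A-KO replicate 4 (0.0791). LAMA5 shares 908 bp with ADRM1 on the opposite strand, and the counts used are those of its own strand. LAMA4, at 12 to 39 counts per sample, had a log2 fold change of 0.58 and was not called (SE 0.30, edgeR adjusted p = 0.163).

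Of the beta chains other than LAMB3, LAMB1 was lower and LAMB2 was not called. LAMB1 (chr7:107564244-107643700, minus strand), the beta chain of laminin-111 and laminin-511, had 58.9, 76.6 and 66.4 TPM in WT against 44.7, 46.7 and 43.8 TPM in ARID1A-KO cells. The genotypes did not overlap, the ARID1A-KO samples lay within a narrow range, and the log2 fold change was -0.59 (SE 0.10, edgeR adjusted p = 0.00148). LAMB2, the beta chain of muscle and kidney laminins, had a log2 fold change of 0.14 (SE 0.10, edgeR adjusted p = 0.307).

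The shares of each gene in the summed TPM of its subunit or chain class show which member made up most of the RNA. LAMB3 held 78.6% ± 0.39 of the beta chain TPM in WT against 84.5% ± 0.96 in ARID1A-KO cells (SD, n = 3 each), while LAMB1 went from 13.6% to 7.98%. Among alpha chains, LAMA1 held 56.7% ± 6.85 in WT against 65.3% ± 1.37 in ARID1A-KO cells (SD, n = 3 each), with overlapping samples. Among integrin alpha subunits, ITGA3 went from 42.9% ± 3.36 to 36.2% ± 0.79 and ITGA5 from 11.5% ± 0.70 to 15.2% ± 0.36 (SD, n = 3 each), both without overlap. ITGB1 held 77.7% of the beta subunit TPM in WT against 80.2% in ARID1A-KO cells, with overlapping samples. The same genes ranked first in these 4 classes in both genotypes, ITGA3, ITGB1, LAMA1 and LAMB3.

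**Figure D4:**
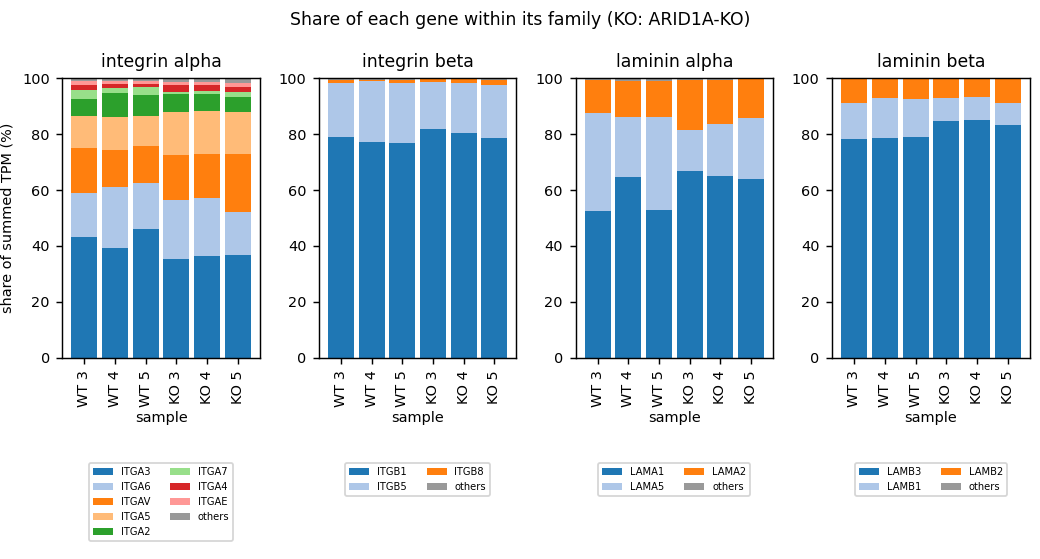
Share of each gene in the summed TPM of its class, in percent, for each of the 6 samples (WT and ARID1A-KO, replicates 3 to 5). LAMB1 is the middle part of the laminin beta bars and made up 13.6% on average in WT against 7.98% in ARID1A-KO cells.

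The members are spread over many chromosomes. The median change of the other genes tested within 5 Mb of each ranged from -0.42 to 0.15, and it had the sign of the member's own change for 17 of the 32 genes. It was past 0.2 in size for ITGB5 and ITGB6 only. With the neighbours' median taken off each gene, 15 members were called in place of 17, and the losses were ITGB5 and ITGA1 (edgeR adjusted p = 0.0561).

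All 17 called members kept their sign when each sample was left out in turn, and 9 were called in all 6 of these fits. These were ITGAM, ITGA2B, ITGA4, ITGA7, ITGB2, ITGB5, LAMA3, LAMB1 and LAMC3. The number of called members was lowest, at 11, without ARID1A-KO replicate 4. The number over all genes was also lowest in that fit, at 5285 against 7099 with all 6 samples. How many of all genes were called in all 6 fits was not counted, so the 9 members have no such share beside them. Within the ARID1A-KO group, replicate 5 was the highest sample for 18 of the 32 tested genes and replicate 3 the lowest for 17. The median SD of the 32 genes was 12.3% of the mean in WT against 10.8% in ARID1A-KO cells.

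**Figure D5:**
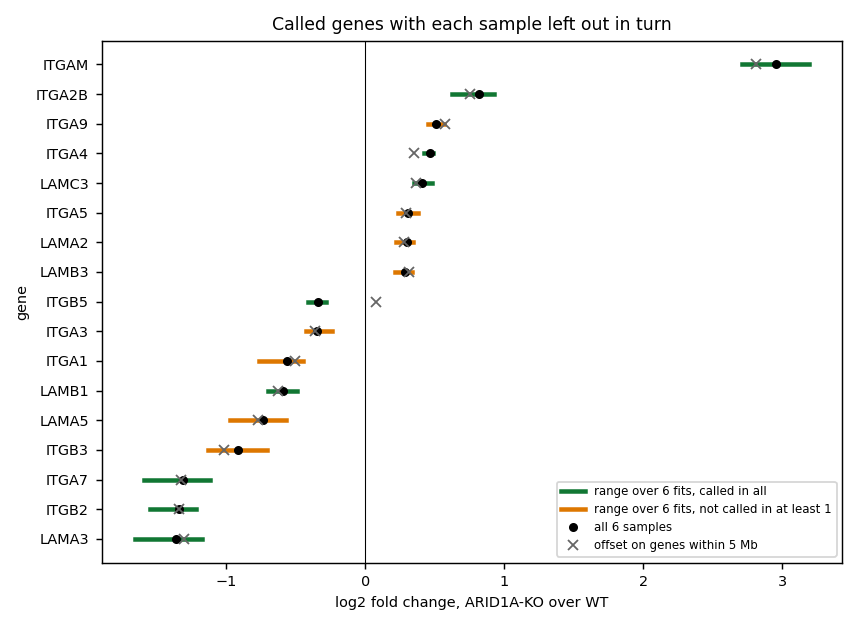
Log2 fold change, ARID1A-KO over WT, of the 17 called genes with all 6 samples (black points), its range with each sample left out in turn (bars) and its value after the median of genes within 5 Mb is taken off (crosses). Green bars are the 9 genes called in every fit. Every bar stays on its side of 0, and the cross of ITGB5 lies at 0.08.

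Genes that work with integrins and laminins were counted from 3 lists chosen by function, to be read against the 36.2% called and the median of 0.01 over all genes. Of 18 basement membrane partners, all tested, 13 were called, 12 lower and 1 higher, with a median log2 fold change of -0.84. The largest falls were those of the type IV collagen chains COL4A3 (-3.47), COL4A4 (-2.33) and COL4A1 (-1.66). COL4A3 had 31 to 58 counts per WT and 1 to 7 per ARID1A-KO sample, and its log2 fold change was -4.29 without ARID1A-KO replicate 4 and -1.47 with unstranded counts, a smaller fall than those of COL4A4 (-2.04) and COL4A1 (-1.65) in that setting. COL4A1, which with COL4A2 forms the common collagen network of basement membranes, went from 153 ± 53.4 to 49.1 ± 12.7 TPM (SD, n = 3 each), whereas COL4A3 was below 1 TPM on average in both genotypes. NID2, a nidogen that links laminin to collagen IV, was the called gene that rose, by 0.58 (edgeR adjusted p = 0.0388). It was called in 1 of the 6 fits that left out a sample, that without ARID1A-KO replicate 4, with an edgeR adjusted p of 0.0634 to 0.111 in the others, and DESeq2 did not call it (adjusted p = 0.0653). The laminin chains themselves had 3 higher and 3 lower calls of 10 tested, with a median of 0.15.

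Of 23 adhesion adaptors, the proteins that bind integrin tails or join them to actin, 12 were called, 10 lower and 2 higher, with a median of -0.31. The largest falls were those of TNS1 (-1.46), TLN2 (-1.42) and TNS3 (-1.04), which encode tensins and a talin. FERMT2, a kindlin that activates integrins, rose by 0.32 and ILK, a scaffold of adhesions, by 0.19. The ILK call was lost without ARID1A-KO replicate 3 (edgeR adjusted p = 0.0948), ARID1A-KO replicate 4 (0.123), WT replicate 3 (0.136) or WT replicate 4 (0.0806), and with unstranded counts (0.447), a setting chosen for the lists after seeing the data. TNS3, whose samples overlapped, was not called without ARID1A-KO replicate 3 (edgeR adjusted p = 0.0659), ARID1A-KO replicate 4 (0.0702), WT replicate 3 (0.0788) or WT replicate 5 (0.0666). TLN2 went from 33.8 ± 4.42 to 12.8 ± 0.525 TPM (SD, n = 3 each). Of 18 other integrin ligands, 14 were tested and 9 called, 4 higher and 5 lower, with a median of -0.19. The largest falls were those of EDIL3 (-1.79), LTBP1 (-1.52) and THBS1 (-1.5), an RGD ligand, a carrier of latent TGF-beta and a thrombospondin. The largest rises among the called genes were those of ICAM2 (4.6), MADCAM1 (1.85) and ICAM1 (0.58), cell surface ligands of leukocyte and gut-homing integrins. CTGF, which was not called, had a log2 fold change of 0.66 (SE 0.24, edgeR adjusted p = 0.0585). Its samples overlapped, at 1184 ± 467 TPM in WT against 1899 ± 225 in ARID1A-KO cells (SD, n = 3 each). ICAM2 had 2 to 9 counts per WT sample, and its log2 fold change was 5.29 without WT replicate 3 and 3.42 with unstranded counts. MADCAM1 had 5 to 13 counts per WT and 24 to 47 per ARID1A-KO sample. ICAM2 and MADCAM1 reached 10 counts in every ARID1A-KO sample but not in every WT sample. Neither was tested under the filter of at least 10 counts in every sample. ICAM2 went from 0.103 ± 0.0738 to 2.60 ± 0.213 TPM (SD, n = 3 each), whereas ICAM1 and MADCAM1 were below 2 TPM on average in both genotypes. The ICAM1 call was not made by DESeq2 (adjusted p = 0.115) and held in 1 of the 6 fits that left out a sample, that without ARID1A-KO replicate 3, with an edgeR adjusted p of 0.0532 to 0.143 in the others.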

How the data were processed

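RNA of untreated AID-DIvA cells, 3 WT and 3 ARID1A-KO samples, was sequenced by the authors as 100 bp pairs from a stranded total RNA kit (the labels give polyA RNA), aligned with STAR to GRCh37 (Roddy workflow) and counted per gene by featureCounts. The authors deposited whole-number counts without normalization (unstranded, reverse-stranded and forward-stranded) and TPM values made from them, scaled to 1000000 over autosomal genes, so that levels divide by gene length and a sample's total. Forward-strand counts were 5.83% to 6.15% of reverse-strand counts, and the reverse-stranded counts were used.

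After filterByExpr and TMM normalization, genotypes were compared by the quasi-likelihood test of edgeR 4.0.16 in R 4.3.3, with Benjamini-Hochberg adjustment over 19599 genes, all 6 samples and no covariate. SE is the absolute log2 fold change divided by the square root of F. The common biological coefficient of variation was 0.111, and no 2 samples of a genotype differed by as little as sampling noise (chi-square per gene 7.57 to 32.9). On simulated counts with 200 changed genes, edgeR recovered 130, 109 of the 134 changed by 2-fold or more, with 16 false calls among 19292 genes tested. That share of changed genes was far below the 36.2% called in the data. The simulated numbers therefore do not give the recovery or the false calls of the real comparison. Ratios of TPM were compared by exact permutation tests (SciPy 1.17.1, Python 3.11.15).

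The name rule found 38 genes, of which 1 is not reported here. Members and lists were chosen with earlier results of these data known. Values per sample are given for members called with a 2-fold change and for the most abundant member of each role, and for other members where a comparison needed them, and of the other lists the called genes with the 3 largest rises and the 3 largest falls are named. Alternatives were DESeq2 1.42.0, RLE size factors, other filters, unstranded counts, the replicate number as a block, each sample left out, an offset on the genes within 5 Mb, an adjusted p under 0.01 and the ratio of TPM means. Promoter windows are from RefSeq (GRCh38.p14), another build than the counts, and the 3 printed were placed in GRCh37 by an exact match of their letters.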

Additional observations from a re-analysis of the deposited data

Results flagged for a closer look

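Forward-strand counts, which were not used in the comparison, stood above the WT level in every ARID1A-KO sample for 2 of the genes with at least 10 such counts in each sample. For LAMA5, forward-strand CPM, scaled by the reverse-strand total, was 49.9 ± 2.94 in WT against 60.0 ± 4.48 in ARID1A-KO cells (SD, n = 3 each) without overlap. They came to 66.4% of the counts on the LAMA5 strand. ADRM1, which shares 908 bp with LAMA5 on the opposite strand, had 178 ± 8.23 CPM in WT against 211 ± 8.79 in ARID1A-KO cells (SD, n = 3 each), and its part in the forward-strand counts was not tested. For ITGB1 the values were 2.09 ± 0.039 and 2.502 ± 0.480 (SD, n = 3 each) without overlap, 0.18% of the counts on its own strand. Neither difference was tested.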

How the results depend on the processing

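The number of called integrin and laminin genes was 17 with DESeq2, RLE size factors, at least 10 counts in every sample and unstranded counts, 20 without a filter (37 genes tested), 15 with the neighbour offset, 11 (without ARID1A-KO replicate 4) to 17 with each sample left out, and 8 (3 higher, 5 lower) at an adjusted p under 0.01. Over all genes it was 7099, 4414 at an adjusted p under 0.01 and 5285 to 7050 with each sample left out. ITGB5 reversed with the neighbour offset, to 0.076. With each sample left out, the uncalled genes ITGA6 (-0.19 to 0.17), ITGA11 (-0.19 to 0.11), ITGAX (-0.17 to 0.088), ITGAE (-0.070 to 0.037) and ITGB4 (-0.33 to 0.12) changed sign. Without a filter, ITGA2, ITGAV (edgeR adjusted p = 0.0241) and ITGB8 (0.000979) were called as well. The cause of these changes was not tested.

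With the replicate number as a block, 16 members were called, 8 higher and 8 lower, and ITGB3 was lost (edgeR adjusted p = 0.0663). Among the genes of the 3 lists that were called without it, the block ended the calls of NID2 (0.0535) and ICAM1 (0.0616). Same-numbered samples of the genotypes had deviations that correlated at -0.24, 0.49 and 0.32 over genes, and differently numbered samples at -0.61 to 0.49. With 3 samples per genotype, these values do not decide whether the numbers pair the samples. The exact test of 3 samples against 3 cannot give a p below 0.1, and ITGB3, ITGB6 and LAMA4, with 12 to 49 counts per sample, had an SE of 0.30 to 0.39.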
